A study of Rattus norvegicus with 9 samples.

Results

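Unannotated transcript clusters with clear signal were taken from an array study of rat heart. A transcript cluster is a stretch of the genome whose overlapping RNA evidence is read by 1 probe set, and its identifier starts with TC and the chromosome. Clusters were chosen by their log2 signal, with a mean of at least 6 over the 9 arrays and no array at 19 or more, near the top of the scale, among those without a gene symbol in the platform annotation. The rule found 4684 clusters, which were 7.16% of the 65403 deposited probe sets analysed here and 10.9% of the 42855 without a symbol. Of the 6609 probe sets without a symbol that reached the mean of 6, another 1925 were left out because an array stood at 19 or more. The level of signal chose the clusters, so their level is a description and carries no test.

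Total RNA of the left ventricle was measured in 3 groups of 3 arrays each. In the IRI + RPostC group, the left anterior descending coronary artery of male Wistar rats was blocked for 45 min and reopened (ischemia-reperfusion injury, IRI), and the rats also received remote ischemic postconditioning (RPostC), in which the left femoral artery was clamped for 30 s and released for 30 s in 3 cycles. In the IRI group, the coronary artery was blocked and reopened in the same way without treatment of the leg. In the control group, a thread lay around the coronary artery for 60 min and no vessel was blocked. All rats weighed 250 to 290 g and were anaesthetised with pentobarbital, ventilated and opened at the chest. The general account of the surgery gives 30 min of ligation, the labels also call the control group sham, and no source used here states how long after reperfusion this RNA was collected. Nor does any state that each array stands for another rat. A p-value here compares a difference with the spread within groups of 3 arrays, pooled over all 3 groups. That spread may be technical.

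Transcribed regions without a gene name are of several kinds. Some belong to long noncoding RNAs, which are spliced and capped like messenger RNAs but carry no long reading frame, some are precursors of small RNAs, and some are exons, retained introns or extended ends of known genes that an annotation has not joined to them. Processed pseudogenes and repeats add clusters whose probes can also bind RNA of the parent gene. In the heart, much of the RNA comes from mitochondria and from genes of the contractile apparatus, and damage adds RNA of inflammatory and stromal cells.

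A stretch of chromosome 17 beside Sfmbt2, which codes for a Polycomb protein, holds many unannotated clusters together with probe sets for microRNAs of the miR-466 family. In mouse, an intron of Sfmbt2 carries a large group of repeated microRNA precursors. The mature microRNAs whose symbols lie in that stretch are printed to show how alike they are, since probes against such repeats can read each other's RNA. They were taken from RefSeq (build GRCr8, chromosome 17), written 5′ to 3′, and capitals mark the seed, bases 2 to 8, which pairs with targets. Both of the 2 microRNA symbols in the stretch were found in RefSeq.
rno-miR-466d: aUGUGUGUguauguucuuuugu
rno-miR-466c-5p: uGUGAUGUguguauguacaug
rno-miR-466c-3p: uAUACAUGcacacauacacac
The 3 seeds differ. The longest run of bases that miR-466d and miR-466c-5p share has 11 bases, uguguguaugu, while miR-466d and miR-466c-3p share at most 3.

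The arrays of the groups differed in their upper range before any cluster was compared. The 95th percentile of log2 signal over all probe sets averaged 11.26 in IRI + RPostC, 11.04 in IRI and 9.13 in control, while the medians were 4.41, 4.45 and 4.53. Between 1944 and 1948 probe sets stood at 19 or more on each IRI + RPostC array, 1918 to 1948 on each IRI array and 166 to 172 on each control array. The hybridization controls, added RNAs of other species, averaged 10.42 to 10.48 on the IRI + RPostC arrays, 10.09 to 10.83 on the IRI arrays and 10.93 to 11.48 on the control arrays. No source used here states whether all 9 arrays went through 1 normalization. Counts over all clusters against control are therefore given as deposited and after quantile normalization, which forces the same distribution on every array. Values and differences of single clusters are as deposited unless stated otherwise. The part of these differences between arrays in the results against control was not tested.

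Marker lists were read to check the labelled tissue. All 10 measured cardiomyocyte genes of 12 had a mean of at least 6, with median levels of 16.95 in IRI + RPostC, 16.88 in IRI and 16.13 in control. As deposited, 4 of them were called higher in each group than in control and 0 lower, with median differences of 0.25 in IRI + RPostC and 0.18 in IRI. After quantile normalization 0 were called higher and all 10 lower, with median differences of -3.88 in IRI + RPostC and -3.75 in IRI. An array at 19 or more was found in 4 of the 10. Actc1 and Mb read 19.93 and Myl2 read 12.74 on all 9 arrays, so that these genes held no difference between groups as deposited. None of the 3 measured skeletal muscle genes or 2 lung epithelium genes reached a mean of 6, and none of the 4 macrophage genes did. Of 3 measured endothelial genes, all were called higher in both IRI + RPostC and IRI than in control. So were 4 and 3 of 5 fibroblast genes (median levels 7.92, 7.70 and 6.97, median differences 0.66 and 0.44) and 2 of 4 neutrophil genes in each. After quantile normalization this was so for 1 endothelial, 0 fibroblast and the same number of neutrophil genes, and 1 endothelial and 2 fibroblast genes were called lower. The endothelial median levels (12.44, 12.60 and 7.12) came from different genes, Kdr in IRI + RPostC and IRI and Pecam1 in control. As deposited, differences from control in IRI + RPostC and IRI were 0.97 and 1.14 in Kdr, 0.87 and 0.79 in Vwf, and 7.31 and 7.01 in Pecam1. Of 3 measured erythrocyte genes, 1 was called lower in each group on both scales, and so was 1 skeletal muscle gene. In bulk tissue, fewer cells of a type and less RNA per cell cannot be told apart, and the part of these markers in the cluster results was not tested. A list of 36 known noncoding RNAs had 8 measured members, of which Gas5 and Rpph1, the RNA of ribonuclease P, had a mean of at least 6. Gas5 had 9.16, 9.35 and 8.67 on the IRI + RPostC arrays, 9.83, 8.66 and 8.66 on the IRI arrays, and 5.08, 5.39 and 4.98 on the control arrays. Both were called higher in each group against control as deposited, and 1 was called higher and 1 lower after quantile normalization. The other 6 had all their arrays under 4.96, the background limit described next.

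The clusters covered a wide range of signal. Their mean over the 9 arrays ran from 6.00 to 18.93 with a median of 7.42, against a median of 7.27 for the 5692 probe sets with a symbol under the same limits. The band from 6 to 7 held 1873 clusters (40.0%), and the band from 14 to 19 held 287 (6.13%). Background was set at 4.96, the 95th percentile of the values of 272 probe sets for smell and taste receptors, genes of sensory neurons. All arrays of a group lay under it for 279 clusters in control, 1 in IRI and 1 in IRI + RPostC. The median standard deviation within a group was 0.23 in IRI + RPostC, 0.28 in IRI and 0.29 in control, each about double that of the probe sets with a symbol (0.10, 0.13 and 0.13).

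Near the lower limit, TC0400001514 (chromosome 4) was just inside with arrays from 5.65 to 6.5, and TC0100002418 (chromosome 1) just outside with arrays from 5.55 to 6.49. Near the upper limit, TC0700003082 (chromosome 7) was just inside with a highest array of 18.98, and TC0400002826 (chromosome 4) was left out for arrays at 19. The highest mean belonged to TC0200002083 on chromosome 2, which read 18.93 on each of the 9 arrays. Over all levels of signal, 45 clusters had 1 value on all 9 arrays, and 164 had 1 value on the 6 IRI and IRI + RPostC arrays. Such a cluster has no measured spread, and its difference from another group is best read as a value. The smallest range among clusters without ties in a group stood at low as well as high signal, as in TC1700002084 (chromosome 17), whose arrays ran from 6.18 to 6.28.

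Some clusters could not be told apart from each other or from an annotated gene. All 9 values were shared with another probe set by 185 clusters, in 87 sets, of which 34 spanned more than 1 chromosome. The largest set held 7 clusters on chromosomes 1, 5, 6 and 14, TC0100000122 among them, with 15.36, 15.43 and 13.94 on the IRI + RPostC arrays, 15.43, 15.14 and 15.43 on the IRI arrays, and 18.39, 17.25 and 17.63 on the control arrays. All the arrays of the other groups lay below control (adjusted p = 0.00405 and 0.00937 by limma, in IRI + RPostC and IRI). In 11 sets a probe set with a symbol was included. TC0800000913 had the values of Rnu12, the U12 RNA of the minor spliceosome, with 9.13, 8.82 and 8.85 in IRI + RPostC, 10.25, 8.88 and 8.11 in IRI, and 5.95, 5.77 and 5.76 in control. The groups did not overlap with control, and the log2 difference was 3.11 in IRI + RPostC and 3.26 in IRI (adjusted p = 0.00307 for IRI, limma). Its control arrays lay under 6, so that the limit on the mean required a difference. Counting each set once left 4586 clusters.

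Clusters were found on every chromosome that the identifiers name apart from 20, of which 1 probe set was analysed here, and Y. Chromosome 19 had 517 probe sets, against 1865 on chromosome 18, and may not be covered in full by the deposited values. Chromosome 1 held the most, with 584, followed by chromosome 2 with 394 and chromosome 4 with 337, and 4 clusters belonged to scaffolds assigned to a chromosome. As a share of the probe sets without a symbol, they made up 8.73% on chromosome 3 and 9.15% on chromosome 16 at the low end. At the high end stood chromosome 17 with 13.4%, X with 13.7%, 19 with 13.8% and the mitochondrial genome with 18.9%, or 7 clusters. Of the 37 mitochondrial probe sets without a symbol, 29 were left out for an array at 19 or more. With a mean of at least 7 asked for, 2811 clusters were left.

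**Figure D1:**
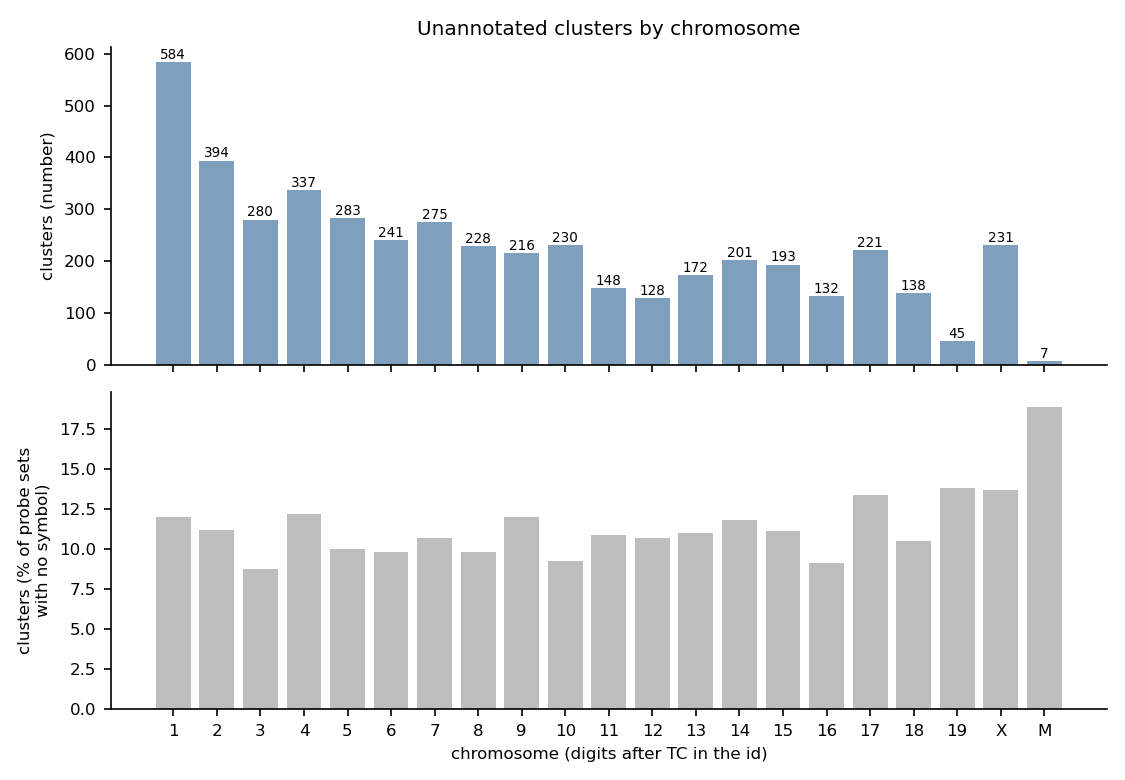
Number of unannotated clusters (upper panel) and their share of the probe sets without a symbol in percent (lower panel), by chromosome as read from the identifier. Bars start at 0. Chromosome 1 holds the highest number, 584, and the mitochondrial genome the highest share, 18.9%, or 7 of 37 probe sets. Another 29 of these 37 were left out for an array at 19 or more.

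Against control, more clusters were called higher than lower on the deposited scale, and this balance did not hold after quantile normalization. In the IRI group, 1921 clusters (41.0%) were called higher and 592 (12.6%) lower at an adjusted p under 0.05 (limma, Benjamini-Hochberg over 65403 probe sets), where 9.95% of all probe sets were called higher and 6.26% lower. The IRI + RPostC arrays gave 1969 (42.0%) higher and 554 (11.8%) lower, where 10.7% and 6.95% of all probe sets were called. The median log2 difference of the clusters was 0.56 in IRI + RPostC and 0.54 in IRI, and that of all probe sets was -0.06 and -0.04. After quantile normalization, 1524 clusters were called higher and 1912 lower in IRI + RPostC, and 1515 higher and 1832 lower in IRI, with medians of -0.31 and -0.22. Both comparisons rest on the same 3 control arrays.

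The rule itself fed into these counts. A mean of 6 over 9 arrays was reached in all 3 groups by 2969 clusters, only through the IRI + RPostC and IRI groups together by 1453, and only through control by 131, and a cluster that passed through some groups had to differ. Among the 2969, the IRI + RPostC group had 722 (24.3%) called higher and 415 (14%) lower, with a median of 0.12. In IRI, 730 (24.6%) were called higher and 458 (15.4%) lower, with a median of 0.11. Under the same limits, 4917 probe sets with a symbol had a mean of at least 6 in each group. Of these, 27.9% were called higher and 13.4% lower in IRI + RPostC, and 24.1% and 14.5% in IRI. After quantile normalization the 2969 clusters gave 352 higher and 1706 lower in IRI + RPostC, and 355 and 1638 in IRI. All 5692 probe sets with a symbol under the limits of the rule had 1810 higher and 765 lower in IRI + RPostC, and 1601 and 822 in IRI. Their medians were 0.13 and 0.10, and they too turned on quantile normalization, to 717 higher and 3515 lower and to 676 and 3428.

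**Figure D2:**
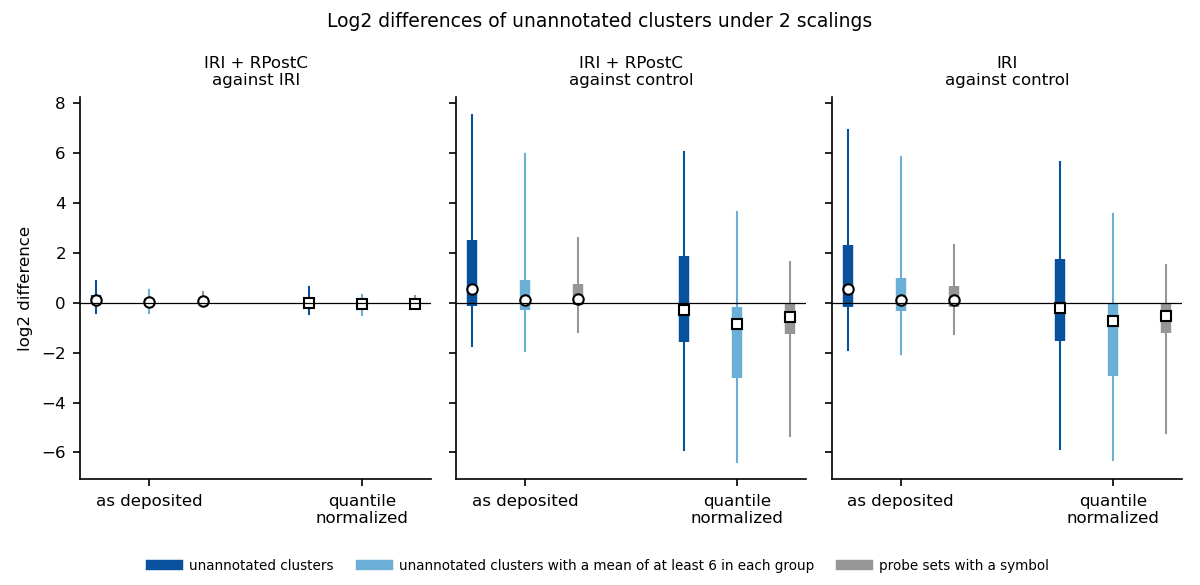
Log2 differences of the 4684 unannotated clusters, of the 2969 with a mean of at least 6 in each group, and of the 5692 probe sets with a symbol under the same limits, in the 3 comparisons, as deposited and after quantile normalization. Symbols mark medians, thick lines the quartiles and thin lines the 5th to 95th percentile. The medians against control lie above 0 as deposited and below 0 after quantile normalization.

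Single calls held unequally between the scalings. All 554 clusters called lower in IRI + RPostC and all 592 called lower in IRI were also called lower after quantile normalization. That scaling moved the medians of the clusters down, which favours lower calls. Centring each array on its median moved them up, and 507 of the 554 and 564 of the 592 were then still called lower. Of the 1969 and 1921 called higher, 1969 and 1919 were still called higher after this centring. After quantile normalization, 1516 of the 1969 called higher (77.0%) in IRI + RPostC and 1486 of 1921 (77.4%) in IRI kept the call. Another 143 and 132 were called lower instead, and the remaining 310 and 303 were not called. The clusters that kept a higher call had a median log2 difference of 3.38 in IRI + RPostC and 3.08 in IRI as deposited, against 1.33 and 1.46 for those that did not. TC1300000059 (chromosome 13) had 17.27, 16.90 and 18.13 on the IRI + RPostC arrays, 17.95, 17.66 and 17.64 on the IRI arrays, and 14.10, 13.65 and 13.95 on the control arrays. All arrays of the other groups stood above those of control, by 3.85 in IRI on the deposited scale, but after quantile normalization the difference was -2.42.

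Several clusters were near background in control and close to the top of the scale in the other groups. TC0100004219 (chromosome 1) had 16.91, 17.43 and 17.56 on the IRI + RPostC arrays, 15.79, 17.43 and 16.70 on the IRI arrays, and 4.59, 3.88 and 4.42 on the control arrays. Its control arrays were not above background, so that it was higher by at least 12.34 on the log2 scale in IRI + RPostC and at least 11.68 in IRI, bounds from the group mean to the background limit (adjusted p = 7.2e-07 and 9.18e-07, limma). TC1200000548 (chromosome 12) had 16.31, 15.82 and 16.13 in IRI + RPostC, 14.59, 14.13 and 15.93 in IRI, and 3.30, 3.65 and 3.34 in control. The same pattern held for TC0400000984 (chromosome 4), with 16.35, 17.10 and 17.31 in IRI + RPostC, 13.66, 16.75 and 15.37 in IRI, and 4.44, 4.04 and 4.28 in control. In both, IRI and control were far apart, and the IRI arrays spread more widely than the IRI + RPostC arrays. TC0300002748 (chromosome 3) read 18.61 on each IRI + RPostC array, 18.54, 18.61 and 18.61 on the IRI arrays, and 5.95, 5.75 and 6.11 on the control arrays. TC0X00000269 (chromosome X) read 18.83 on all 6 IRI + RPostC and IRI arrays and 6.33, 5.73 and 6.49 on the control arrays. The 10 called clusters without overlap that ranked highest by fitted difference kept their call in each comparison under each alternative that could be fitted. Their order is no measured one, since the control arrays were not above background in 4 of the 10 for IRI + RPostC and in 1 of the 10 for IRI, and 8 and 4 of them had a control mean under 6, so that the limit on the mean required a difference.

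The clusters called lower than control were fewer as deposited. All of them were also called lower after quantile normalization, which moved the medians of the clusters down and so favoured this. TC1000002356 (chromosome 10) had 6.15, 6.04 and 5.08 on the IRI + RPostC arrays, 6.13, 6.07 and 6.41 on the IRI arrays, and 18.18, 16.86 and 15.88 on the control arrays. It fell by 11.21 ± 0.57 (SE) on the log2 scale in IRI + RPostC and by 10.77 ± 0.57 in IRI (adjusted p = 6.93e-06 and 9.04e-06, limma). TC0X00002310 (chromosome X) had 5.35, 5.19 and 4.12 in IRI + RPostC, 5.62, 4.96 and 5.12 in IRI, and 14.50, 12.47 and 12.99 in control. TC1100000485 (chromosome 11) had 8.21, 8.07 and 7.81 in IRI + RPostC, 7.76, 7.62 and 7.80 in IRI, and 15.51, 14.63 and 14.79 in control. In each of the 3, no array of either group overlapped with the control arrays. All IRI + RPostC and IRI arrays of TC0X00002310 lay under 6, so it passed the limit on the mean through control alone. It therefore had to be lower in the other groups. The IRI + RPostC mean of TC1000002356 was also under 6, so that the limit required a difference there too. TC0200001127 (chromosome 2), which fell by 5.33 in IRI + RPostC and by 5.63 in IRI, carried the same 9 values as Eif4e-ps3, a pseudogene of the cap-binding protein eIF4E, so that its signal cannot be assigned to 1 place.

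**Figure D3:**
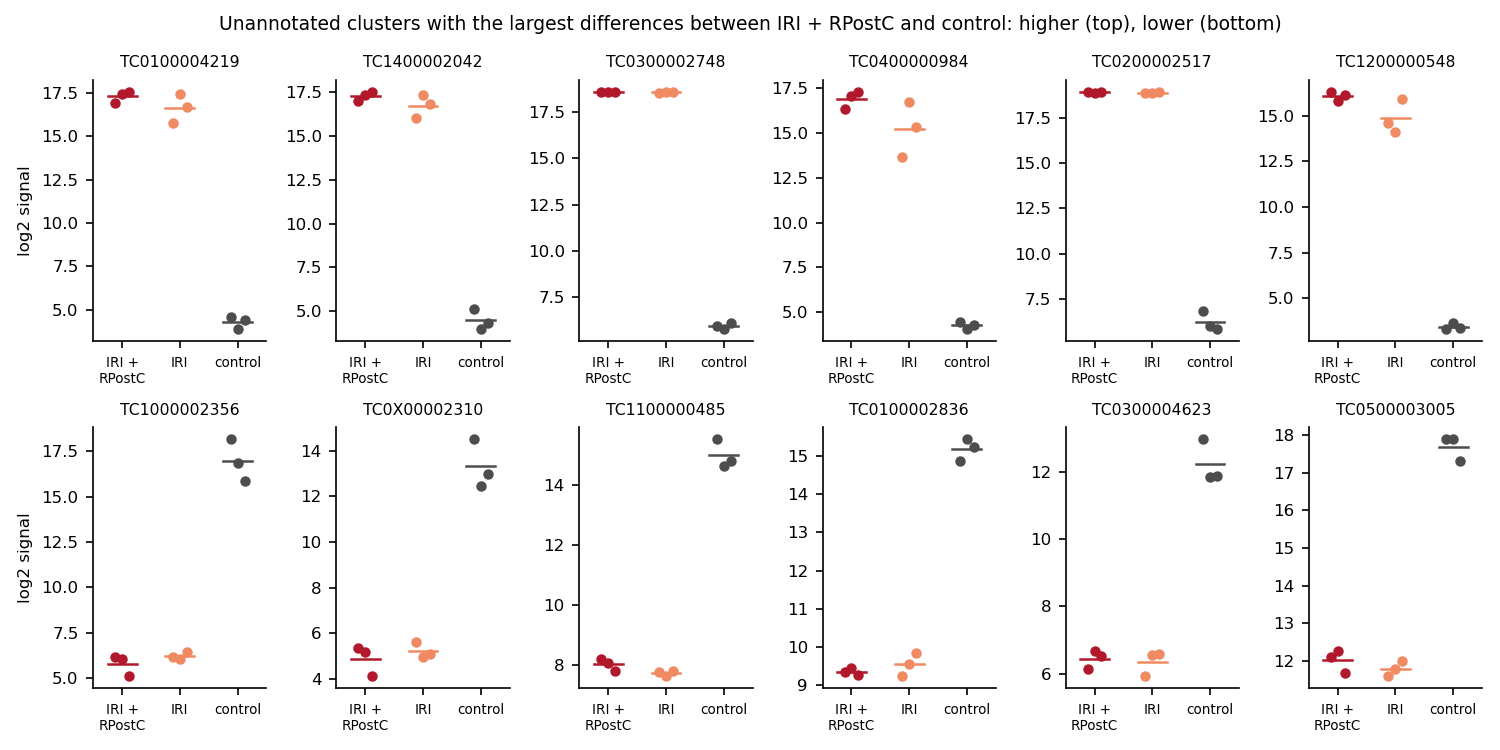
Log2 signal on each of the 9 arrays of unannotated clusters with the largest fitted differences between IRI + RPostC and control, higher (top) and lower (bottom) in IRI + RPostC, one point for each array, a line at the group mean and an axis of its own in each panel, with the IRI + RPostC arrays left, the IRI arrays in the middle and the control arrays right. The arrays of IRI + RPostC and IRI lie together and apart from control, as in TC1000002356, with 5.08 to 6.41 on the IRI + RPostC and IRI arrays against 15.88 to 18.18 on the control arrays.

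By chromosome, the deposited differences from control were unequal in size. In IRI + RPostC the highest medians of the log2 difference among the nuclear chromosomes were 0.98 on chromosome 13, 0.93 on chromosome 4, 0.90 on chromosome 9 and 0.80 on chromosome 17, against 0.29 on chromosome 3, 0.30 on X and 0.08 on chromosome 19. On the same chromosomes the IRI medians were 0.91, 0.92, 0.74 and 1.05 against 0.25, 0.27 and 0.11, while chromosome 18 had 0.77. Chromosome 13 had 95 of 172 clusters (55.2%) called higher and 19 (11%) lower in IRI + RPostC. In IRI it had 86 (50%) and 22 (12.8%). On X, 91 of 231 (39.4%) were called higher and 45 (19.5%) lower in IRI + RPostC. In IRI it had 88 (38.1%) and 50 (21.6%). Among all clusters, 42.0% were called higher and 11.8% lower in IRI + RPostC, and 41.0% and 12.6% in IRI. Over all probe sets the shares were 10.7% and 6.95% in IRI + RPostC, and 9.95% and 6.26% in IRI. After quantile normalization chromosome 13 had medians of 0.41 and 0.34, chromosome 4 of 0.00 and 0.09, chromosome 9 of -0.22 and -0.18, chromosome 17 of -0.25 and 0.05, X of -0.64 and -0.55, and chromosome 19 of -1.09 and -0.69. These medians and counts include clusters that reached the limit only through the IRI + RPostC and IRI groups, 1453 over all chromosomes. Such clusters had to be higher than control. As deposited, probe sets with a symbol under the same limits had medians of 0.29 and 0.22 on chromosome 13, and 0.13 and 0.10 over all chromosomes. The order of chromosomes is a description, since it was not tested.

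The 7 mitochondrial clusters had wide spreads in the IRI group, where 1 array stood low. They are a minority of the 37 mitochondrial probe sets without a symbol, since 29 were left out for an array at 19 or more. TC0M00000016 had 17.24, 15.73 and 17.07 on the IRI + RPostC arrays, 13.78, 17.24 and 17.24 on the IRI arrays, and 6.63, 5.39 and 6.30 on the control arrays. TC0M00000010 had 17.34, 15.21 and 16.90 in IRI + RPostC, 11.82, 18.00 and 16.85 in IRI, and 8.49, 8.35 and 8.10 in control. IRI replicate 1 was the lowest IRI array in all 7. Against control, 4 clusters were called higher in each group, and 5 in IRI + RPostC and 4 in IRI after quantile normalization, where 1 was called lower in each. The exception in level was TC0M00000031, with 12.88, 11.76 and 12.33 in IRI + RPostC, 9.06, 12.17 and 12.54 in IRI, and 11.61, 11.38 and 11.61 in control. Between IRI + RPostC and IRI the median difference was 0.93 with all arrays and -0.94 without IRI replicate 1, and no mitochondrial cluster was counted in either direction. Without IRI replicate 1, 6 clusters instead of 4 were called higher in IRI than in control, and without IRI replicate 3 or control replicate 3, 2 were.

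Whether postconditioning moved the clusters was read from IRI + RPostC against IRI. No cluster passed an adjusted p of 0.05, and the smallest adjusted p was 0.464 (limma). With an unadjusted p under 0.05 and a change of 1.2-fold or more, a log2 difference of 0.26, 255 clusters (5.44%) stood higher and 56 (1.2%) lower, where 1.37% and 1.22% of all probe sets did. Most probe sets lie near background, and those with a symbol under the same limits had 224 (3.94%) higher and 6 (0.105%) lower. Among the 2969 clusters with a mean of at least 6 in each group, 67 (2.26%) stood higher and 44 (1.48%) lower, so that 188 of the 255 did not reach that mean in each group. Of the 4917 probe sets with a symbol that reached it in each group, 160 (3.25%) stood higher and 5 (0.102%) lower. The median log2 difference was 0.09 over the clusters, 0.06 over probe sets with a symbol under the same limits and -0.00 over all probe sets. Quantile normalization left 148 higher and 96 lower. The count rested on single arrays, with 148 higher without IRI + RPostC replicate 3, 34 lower without IRI + RPostC replicate 2, and 103 and 115 lower without IRI + RPostC replicate 1 and without IRI replicate 1.

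The clusters with the smallest p that stood higher with postconditioning had tight groups, which a choice by the smallest p favours. TC0700000991 (chromosome 7) had 8.55, 8.28 and 8.57 on the IRI + RPostC arrays, 7.09, 7.27 and 7.20 on the IRI arrays, and 4.83, 5.17 and 4.63 on the control arrays, a difference of 1.28 ± 0.15 (SE) from IRI (unadjusted p = 5.09e-05, limma). TC0700003731 (chromosome 7) had 9.49, 9.36 and 9.49 in IRI + RPostC, 8.42, 8.67 and 8.76 in IRI, and 5.2, 5.16 and 4.97 in control. TC0X00002131 (chromosome X) had 10.46, 9.91 and 10.37 in IRI + RPostC, 8.90, 9.08 and 9.23 in IRI, and 5.04, 5.45 and 5.16 in control. In all of these the 3 groups stood apart, with IRI between the other groups. Their control arrays all lay under 6, so that the limit on the mean required a higher signal in the other groups. That IRI + RPostC and IRI did not overlap was a condition for naming them. A different order was seen in TC0700002933 (chromosome 7), with 9.61, 9.73 and 9.69 in IRI + RPostC, 9.18, 9.10 and 9.04 in IRI, and 11.23, 10.86 and 11.02 in control. Its difference of 0.57 from IRI became 0.34 after quantile normalization (unadjusted p = 0.504, limma).

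As deposited, most of those with the smallest p that stood lower with postconditioning were higher in IRI than in control. TC0200001487 (chromosome 2) had 8.30, 8.30 and 8.34 on the IRI + RPostC arrays, 8.95, 8.80 and 8.70 on the IRI arrays, and 7.60, 7.74 and 7.73 on the control arrays, a difference of -0.50 ± 0.07 (SE) from IRI (unadjusted p = 0.000167, limma). TC0100003244 (chromosome 1) had 13.62, 13.39 and 13.95 in IRI + RPostC, 15.40, 15.83 and 14.82 in IRI, and 12.28, 13.11 and 12.27 in control, a difference of -1.69 from IRI. On the deposited scale both had their IRI + RPostC arrays between those of IRI and control. Their place above control did not hold after quantile normalization, when the difference of TC0100003244 was -5.10 in IRI + RPostC and -3.65 in IRI from control, while its difference between IRI + RPostC and IRI was -1.45. TC1900000133 (chromosome 19) had 6.66, 6.18 and 6.33 in IRI + RPostC, 7.11, 7.15 and 6.99 in IRI, and 6.99, 7.5 and 6.96 in control, so that IRI and control overlapped.

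**Figure D4:**
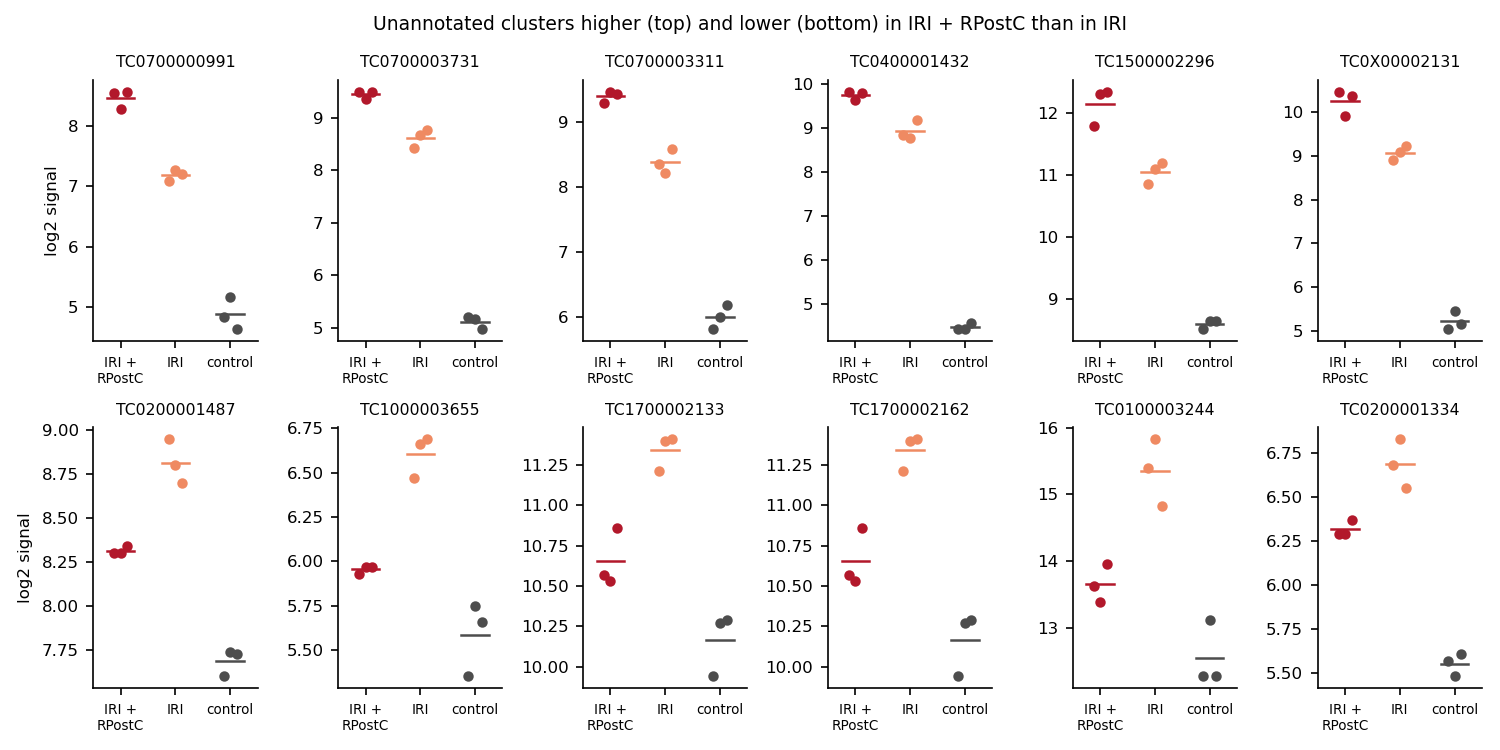
Log2 signal on each of the 9 arrays of unannotated clusters with the smallest unadjusted p between IRI + RPostC and IRI among those without overlap of the groups, one point for each array, a line at the group mean and an axis of its own in each panel, with the IRI + RPostC arrays left, the IRI arrays in the middle and the control arrays right. In TC0700000991 the IRI + RPostC arrays lie at 8.28 to 8.57 and the IRI arrays at 7.09 to 7.27.

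Of the 4684 clusters, 205 have an entry in the study's own tables although the platform gives no symbol, 151 of them classed there as noncoding, 35 as unassigned, 11 as coding, 7 as pseudogene and 1 as complex. The 3 described here were picked for their gene-like description after their values were seen. TC1600000862 (chromosome 16), described as like tissue-type plasminogen activator, the protease that starts the breakdown of fibrin clots, had 14.03, 13.78 and 14.03 on the IRI + RPostC arrays, 12.76, 12.55 and 13.15 on the IRI arrays, and 5.79, 6.11 and 6.38 on the control arrays. The groups did not overlap, and it was higher by 7.85 in IRI + RPostC and by 6.73 in IRI than in control (adjusted p = 2.3e-07 and 5.31e-07, limma), with a difference of 1.13 between IRI + RPostC and IRI (unadjusted p = 0.000652). Its values lay close to those of Plat itself, 13.94, 13.64 and 13.84 in IRI + RPostC, 12.66, 12.49 and 12.79 in IRI, and 5.67, 5.91 and 5.81 in control. TC0200005010 (chromosome 2), described as like vascular cell adhesion protein 1, which holds leukocytes to activated endothelium, had 11.83, 10.36 and 9.56 in IRI + RPostC, 6.86, 9.76 and 11.73 in IRI, and 6.23, 5.70 and 5.89 in control. The IRI arrays were as far apart as the groups, and the adjusted p was 0.0344 in IRI + RPostC and 0.0986 in IRI (limma). The control mean of TC0200005010 was under 6, so that the limit on the mean required a higher signal outside control. The call in IRI + RPostC was lost with the replicate block and in the fits without any 1 control array, any 1 IRI + RPostC array or IRI replicate 2. TC0900000139 (chromosome 9), described as like spermidine/spermine acetyltransferase, an enzyme of polyamine breakdown, had 8.99, 9.27 and 10.26 in IRI + RPostC, 10.06, 8.74 and 8.40 in IRI, and 7.13, 7.27 and 6.22 in control. It was higher by 2.64 in IRI + RPostC (adjusted p = 0.0139, limma) and, in IRI, by 2.19 as deposited and 1.51 after quantile normalization, where the adjusted p was 0.0754. The call in IRI was also lost with array weights, with the replicate block, with the groups fitted alone, and in the fits without any 1 control array, IRI replicate 1 or 2, or IRI + RPostC replicate 2.

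Neighbouring clusters had differences of the same sign in a larger share of pairs than clusters farther apart, a difference that was not tested. In the identifiers, numbers follow position along a strand, and 714 pairs of clusters carried numbers next to each other. Across these pairs the log2 differences of the neighbours correlated with r = 0.54 in IRI + RPostC and 0.47 in IRI against control, and 77.3% and 77.5% had the same sign. In the 3945 pairs of a cluster and the next one on its chromosome whose numbers did not follow each other, r was 0.06 in both, and 55.6% and 55.0% had the same sign. After quantile normalization the neighbours gave r = 0.53 and 0.49 and the same sign in 73.9% and 73.5%, against 53.8% and 53.5% in the pairs farther apart. Pairs share arrays and may be pieces of 1 transcript or share probes, so these shares and correlations are a description. In 29 runs, 4 or more clusters followed each other without a gap, 148 clusters in all. Against control, 111 of the 148 (75%) were called higher and 0 lower in IRI + RPostC, and 114 (77%) higher and 1 lower in IRI, beside the 42.0% and 41.0% called higher among all clusters. In 87 of the 148 the control mean was under 6, so that they passed the limit through the other groups and had to be higher there. More were called higher than lower in 28 runs in IRI + RPostC and 27 in IRI as deposited, and in 22 and 23 after quantile normalization, when 6 runs in each had more called lower.

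The longest runs away from chromosome 17 stood above control on both scales, and the limit on the mean required this of most of their clusters. A control mean under 6 was found in 7 of the 8 clusters of the chromosome 4 run, 8 of the 12 on chromosome 1 and 6 of the 9 on chromosome 11. On chromosome 4, the 8 clusters TC0400002001 to TC0400002008 were numbered between Slco1b2, a transporter of the liver, and Iapp, which codes for the islet hormone amylin, and both of these genes stood under the background limit in every group mean. All 8 clusters were called higher than control in IRI + RPostC and in IRI, as deposited and after quantile normalization. TC0400002006 had 15.96, 15.82 and 15.97 on the IRI + RPostC arrays, 13.71, 15.32 and 15.35 on the IRI arrays, and 4.27, 4.38 and 4.18 on the control arrays. TC0400002005 had 10.20, 10.47 and 10.88 in IRI + RPostC, 7.29, 8.75 and 8.79 in IRI, and 4.87, 4.96 and 4.76 in control. It stood apart in all 3 groups, and its difference of 2.24 ± 0.40 (SE) between IRI + RPostC and IRI had an unadjusted p of 0.000801 (limma). In this run, 3 clusters stood higher in IRI + RPostC than in IRI by the unadjusted rule, TC0400002006 losing that count without any 1 of the IRI + RPostC arrays.

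On chromosome 1, the 12 clusters TC0100004444 to TC0100004455 were numbered between Tcp1, a subunit of the chaperonin that folds actin and tubulin, and Slc22a2, an organic cation transporter. Tcp1 averaged 8.83 in each group. In contrast, the 12 clusters stood above control by 2.05 to 7.09 in IRI + RPostC and by 2.04 to 6.80 in IRI, and all their IRI + RPostC and IRI arrays lay above their control arrays. TC0100004453 had 13.64, 13.88 and 14.31 in IRI + RPostC, 13.72, 12.37 and 14.87 in IRI, and 6.28, 7.35 and 6.93 in control. After quantile normalization, 10 were called higher in IRI + RPostC and 11 in IRI. On chromosome 11, 9 clusters, TC1100001609 to TC1100001617, lay by number between Drd3, a dopamine receptor, and Igsf11, an adhesion molecule, both under the background limit in their group means. Of these, 8 were called higher in IRI against control on both scales. TC1100001611 had 9.60, 10.51 and 10.52 in IRI + RPostC, 10.03, 9.28 and 9.33 in IRI, and 4.56, 4.65 and 5.85 in control.

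The densest stretch lay on chromosome 17, after Sfmbt2 and up to TC1700002165, and it was chosen after its values were seen. It held 74 probe sets, of which 54 were unannotated clusters with 44 different sets of values, 15 had no symbol and a mean under 6, and 5 had a symbol, 3 for Mir466d, 1 for Mir466c and 1 for Itih5, a heavy chain of the inter-alpha-trypsin inhibitor family. Sfmbt2 itself averaged 3.93 in each group, under the background limit. The median over the 54 clusters was 9, 8.48 and 8.92 on the IRI + RPostC arrays, 8.90, 9.46 and 9.54 on the IRI arrays, and 7.59, 8.15 and 8.25 on the control arrays. Every array of the other groups had a higher median than any control array. The highest signals were those of TC1700002165, with 14.88, 12.61 and 14.26 in IRI + RPostC, 14.07, 15.30 and 16.03 in IRI, and 11.53, 12.68 and 12.55 in control. There the IRI + RPostC arrays overlapped with control.

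As deposited, 13 of the 54 clusters were called higher in IRI + RPostC and 28 in IRI than in control, and none lower, with median differences of 0.69 and 1.11. That was 24.1% in IRI + RPostC and 51.9% in IRI, where 49.1% and 47.3% of the other 167 clusters of chromosome 17 were called higher. These counts rested on single arrays, with 3 in IRI + RPostC without its replicate 3, 4 without its replicate 1, and 6 to 8 without control replicate 1, control replicate 3 or IRI replicate 2. In IRI, 10 were left without its replicate 2 and 14 without its replicate 3 or control replicate 1. The direction did not hold after quantile normalization, when 0 were called higher and 11 lower in IRI + RPostC, and 2 higher and 9 lower in IRI, with medians of -0.62 and -0.00. TC1700002131 illustrates the size of the turn. It had 13.19, 12.79 and 13.31 in IRI + RPostC, 12.59, 13.96 and 14.35 in IRI, and 11.58, 12.03 and 11.08 in control, which gave a difference of 2.07 in IRI as deposited and of -4.29 after quantile normalization.

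Between IRI + RPostC and IRI, the direction in this stretch was the same on both scales. The IRI + RPostC mean was below the IRI mean in 53 of the 54 clusters, with a median difference of -0.40 as deposited and -0.47 after quantile normalization. The median was -0.22 without IRI + RPostC replicate 2, -0.23 without IRI replicate 3 and -0.61 without IRI replicate 1. The IRI + RPostC mean was below the IRI mean in 33.2% of all clusters, and the other 167 clusters of chromosome 17 had a median difference of 0.13. By the unadjusted rule 0 stood higher and 6 lower, with 4 different sets of values among the 6, and none passed an adjusted p of 0.05. The 54 clusters are no independent samples, since they repeat sequence and the same 6 arrays. Leaving out 1 array at a time, the number below ran from 44 of 54 without IRI replicate 3 to 53, and the number counted as lower was 2 without IRI + RPostC replicate 2, IRI replicate 2 or IRI replicate 3, 3 without IRI + RPostC replicate 3, and 14 without IRI replicate 1. Mir466c, the annotated probe set TC1700002142 of the stretch, had 8.42, 8.09 and 8.09 on the IRI + RPostC arrays, 8.81, 9.20 and 8.98 on the IRI arrays, and 6.58, 6.85 and 6.73 on the control arrays. Its groups did not overlap, the difference between IRI + RPostC and IRI was -0.80 ± 0.13 (SE, unadjusted p = 0.000561, limma), and it was called higher than control in both groups on both scales. TC1700002133 had 10.57, 10.53 and 10.86 in IRI + RPostC, 11.21, 11.40 and 11.41 in IRI, and 9.94, 10.27 and 10.29 in control. Its difference of -0.69 between IRI + RPostC and IRI was shared to the last digit by TC1700002162, and after quantile normalization it was -0.75 (unadjusted p = 0.271, limma). Of the 3 probe sets for Mir466d, TC1700002115 and TC1700002144 shared all 9 values, with 9.18, 8.53 and 9.41 in IRI + RPostC, 9.11, 9.70 and 9.71 in IRI, and 8.19, 8.70 and 9.11 in control, a difference of -0.47 between IRI + RPostC and IRI (unadjusted p = 0.184, limma). The other one, TC1700002111, had 7.45, 7.47 and 7.98 in IRI + RPostC, 6.81, 8.54 and 7.62 in IRI, and 7.73, 7.37 and 7.53 in control, and all groups overlapped.

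**Figure D5:**
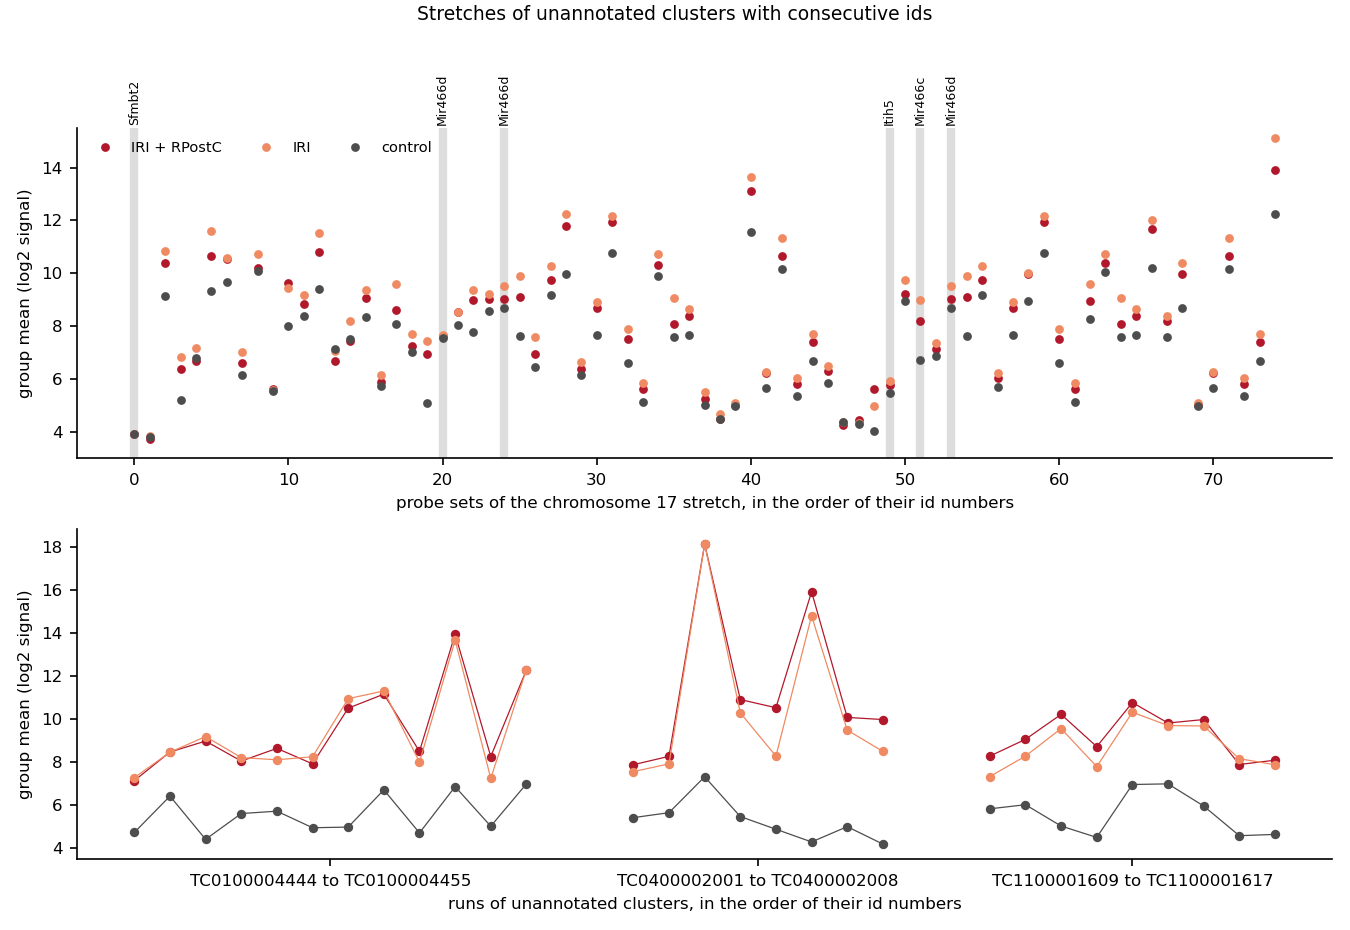
Group means of log2 signal as deposited, in the order of the identifier numbers, of all probe sets of the chromosome 17 stretch with Sfmbt2 at its start (upper panel, grey bars mark probe sets with a symbol) and of the runs on chromosomes 1, 4 and 11 (lower panel, lines join the clusters of a run). In the lower panel the IRI + RPostC and IRI means lie above control throughout, as in TC0400002006 with 15.91 in IRI + RPostC, 14.79 in IRI and 4.28 in control, and in the upper panel the IRI + RPostC mean lies below the IRI mean in 53 of the 54 unannotated clusters.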

How the data were processed

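The authors hybridized labelled left ventricle RNA to an Affymetrix rat array and applied robust multichip analysis (RMA), per the labels, and the deposited values are on the log2 scale, 1 per probe set. No source used here names the software version or a filter. The methods name a Rat Gene 2.0 ST chip and the series record a human array, while the identifiers carry a rat suffix.

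The 123 control probe sets were left out, and the other 65403 were fitted as deposited in 1 fit over the 3 groups by limma 3.58.1 under R 4.3.3, using lmFit and eBayes without a filter. Adjusted p-values are those of Benjamini and Hochberg over all fitted probe sets. Against control, clusters were called at an adjusted p under 0.05, and between IRI + RPostC and IRI they were counted where the unadjusted p was under 0.05 and the change 1.2-fold or more. The fit was tested on simulated data. Precision is limited by 3 arrays per group: an exact two-sided permutation test of 3 against 3 cannot give a p below 0.1. Other columns of per-sample values numbered 0.

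Gene symbols came from the platform annotation, where 22070 probe sets had 1 symbol, 478 several and 42855 none. Columns of the study's own comparisons were not used. Start and end positions are not given, because no genome of the build was used here.

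The clusters and lists were chosen with earlier results of these data known. Named by rule were the 12 brightest clusters and the brightest of each chromosome, the 10 higher and 10 lower clusters without overlap (ranked by difference from control, or by p for IRI + RPostC against IRI), the 6 steadiest, and those next to the limits of the rule. The text gives some of them. Mitochondrial, described and neighbouring clusters, those with shared values, and TC1700002131, TC1700002165, TC0400002005, TC0400002006, TC0100004453 and TC1100001611 were chosen after their values were seen.

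Alternatives were other scalings, array weights, other variance settings, 2 groups fitted alone, filters, the methods' t-test, a replicate block, other limits of the rule, a fold of 1.5, and leaving out each array. Python 3.11.15, numpy 2.4.6, pandas 2.3.3 and matplotlib 3.10.9 were used for tables and figures.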

Additional observations from a re-analysis of the deposited data

Results flagged for a closer look

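Outside the clusters reported on, 1723 probe sets without a symbol stood at 19 or more on all 6 IRI + RPostC and IRI arrays and on no control array. They were left out by the upper limit of the rule and drew attention because their signal was above that of the control arrays. Their median group mean was 19.93 in IRI + RPostC, 19.93 in IRI and 11.06 in control, with quartiles of the control means at 8.09 and 11.96. In 1673 of them the 6 IRI + RPostC and IRI arrays carried 1 identical value. The opposite pattern, all 3 control arrays at 19 or more and none of the other 6, was found in 1 probe set without a symbol, and 16 probe sets with a symbol were at 19 or more on all 6 IRI + RPostC and IRI arrays and on no control array. Another 135 without a symbol stood at 19 or more on all 9 arrays.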

How the results depend on the processing

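Counts of clusters are given as higher and lower. Quantile normalization gave 1524 and 1912 in IRI + RPostC against control (1969 and 554 as deposited), 1515 and 1832 in IRI against control (1921 and 592), and 148 and 96 in IRI + RPostC against IRI (255 and 56). Centring each array on its median moved the median of all probe sets by 0.12, 0.08 and 0.04 in these comparisons. The share of higher among called clusters was then 81.2%, 78.7% and 85.9%, against 78.0%, 76.4% and 82.0% as deposited and 44.4%, 45.3% and 60.7% after quantile normalization. With a mean of at least 5, lower counts were 881, 889 and 146 and the higher count in IRI + RPostC against IRI was 388. With a mean of at least 7, lower counts were 358, 393 and 28, the higher count in IRI + RPostC against control was 1301, and 2811 clusters were left. With a mean of at least 6 in each group, higher counts were 722, 730 and 67. Without the limit of 19, they were 3733 and 3686 against control. The methods' t-test after Benjamini-Hochberg called 340 and 330 lower against control and 0 in either direction in IRI + RPostC against IRI, where at an unadjusted p under 0.05 it gave 132 and 26. There, array weights gave 110 lower and a fold of 1.5 gave 25. Causes were not tested. Leaving out 1 array, the counts ran from 1684 to 1949 and 432 to 571 in IRI + RPostC against control, 1645 to 1904 and 483 to 607 in IRI against control, and 148 to 306 and 34 to 115 in IRI + RPostC against IRI. No cluster passed an adjusted p of 0.05 in IRI + RPostC against IRI under any alternative (lowest 0.0751, without IRI + RPostC replicate 1), and 318 had an unadjusted p under 0.05 as deposited.

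The replicate block gave 1783 and 500, 1716 and 527, and 258 and 58, and changed no count by over 1.5 times. Same-numbered arrays of IRI + RPostC and IRI deviated together with r of -0.30, 0.03 and -0.14, so the numbers were not taken as pairs. Counting sets of identical values once, an alternative chosen after seeing the data, gave 1920 and 539, 1870 and 576, and 249 and 54. The 20 clusters named by size or p in each comparison kept direction and call where they could be fitted, except TC0700002933, TC1700002133 and TC1700002162 in IRI + RPostC against IRI after quantile normalization (0.34, -0.75 and -0.75). Clusters described for other reasons did not all do so, as given beside TC1300000059, TC1700002131, TC0200005010, TC0900000139 and TC0400002006. Without probe sets with tied values, 6 of the clusters named for IRI against control, 2 of those for IRI + RPostC against control and 1 of those for IRI + RPostC against IRI could not be fitted.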
